A study of Homo sapiens with 3 samples.

Results

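The genes described here are 9 feedback inhibitors of ERK signalling: the Sprouty genes SPRY1, SPRY2 and SPRY4, the related SPRED1 and SPRED2, and the phosphatase genes DUSP1, DUSP4, DUSP5 and DUSP6. They were taken by gene symbol from the 18345 genes of the deposited tables, and all 9 were found and reached 1 FPKM in 1 or more libraries, as did 11343 genes in all. The RNA-seq libraries come from differentiating H1 cells, an established line of human embryonic stem cells, sorted as CD31+CD34+ HEPs and then by surface CD105 into a high, a low and a negative population, here CD105high, CD105low and CD105neg. All 3 populations had the same culture, with 40 ng/ml activin A plus 50 ng/ml BMP4 for 2 days and then 40 ng/ml VEGF plus 50 ng/ml bFGF for 3 days, and are labelled day 4. Each population had 1 library from 1 cell line, so no difference below has a replicate check, no p-value can be given, and each comparison is one of libraries.

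VEGF and FGF bind receptor tyrosine kinases, which switch on RAS and through it the kinases RAF, MEK and ERK. ERK activity in turn induces genes whose products damp the same pathway, so their transcripts are widely used as a readout of recent ERK activity. Sprouty and SPRED proteins act upstream, between the receptor and RAF, and the DUSP proteins remove the activating phosphates from ERK and related kinases. In endothelial cells Sprouty and SPRED proteins are known to restrain growth factor responses during vessel formation.

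The gate genes followed the sort. ENG, which encodes CD105, stood at 13.8 FPKM in CD105high, 8.56 FPKM in CD105low and 2.12 FPKM in CD105neg, and PECAM1 (CD31) and CD34 were present in all 3 libraries in the same order. The tables summed to 265618 FPKM in CD105high, 284824 FPKM in CD105low and 289229 FPKM in CD105neg. The absolute depth is unknown. Going by the step between the lowest values, if they are FPKM, CD105high was 1.07 times and CD105low 1.12 times as deep as CD105neg. The lowest of the 9 genes, SPRED2, stood at 294 times that step for a 1-kilobase transcript in CD105high, 298 times in CD105low and 256 times in CD105neg. In bulk libraries fewer cells of a type and less RNA per cell cannot be told apart.

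Of the feedback inhibitor genes, 5 were higher and 4 lower in CD105high than in CD105neg. By at least 0.3 on the log2 scale 6 of the 9 differed, as did 38.6% of measured genes (those with 1 FPKM or more in any library). That cut was not among the planned settings. In CD105low against CD105neg 4 members reached it, with 24.7% of measured genes, and in CD105high against CD105low 1 member, with 17.6%. The summed level of the 9 genes was 207 FPKM in CD105high, 200.4 FPKM in CD105low and 185 FPKM in CD105neg, a ratio of 1.12 between CD105high and CD105neg. KDR, which encodes a receptor for VEGF, had 713 FPKM in CD105high and 430 FPKM in CD105neg, a ratio of 1.66. SPRY1 and DUSP4 were lower and SPRY4, DUSP1, DUSP6 and SPRED1 were higher in CD105high than in CD105neg. No gene's highest level was more than 1.54 times its lowest.

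The order of the levels, on the per-length FPKM scale, was much the same in each library. DUSP6 was the highest, followed by DUSP1 and DUSP5, and DUSP4 and SPRED2 were the lowest in all 3. DUSP6 lay above 92.7% of measured genes in CD105high, 91.9% in CD105low and 89.6% in CD105neg, where measured means 1 FPKM or more in any library. SPRED2 lay above 24.2%, 21.5% and 21.5% of them in CD105high, CD105low and CD105neg. Between these ends SPRY1, SPRY2, SPRY4 and SPRED1 lay close together, between 13.2 and 24.0 FPKM, and their order changed with the population. SPRY1 was the fourth of the 9 genes in CD105low and CD105neg and the sixth in CD105high, while SPRY4 was the fourth in CD105high and the seventh in the other libraries. With 1 library a population, no spread can tell these neighbours apart.

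**Figure D1:**
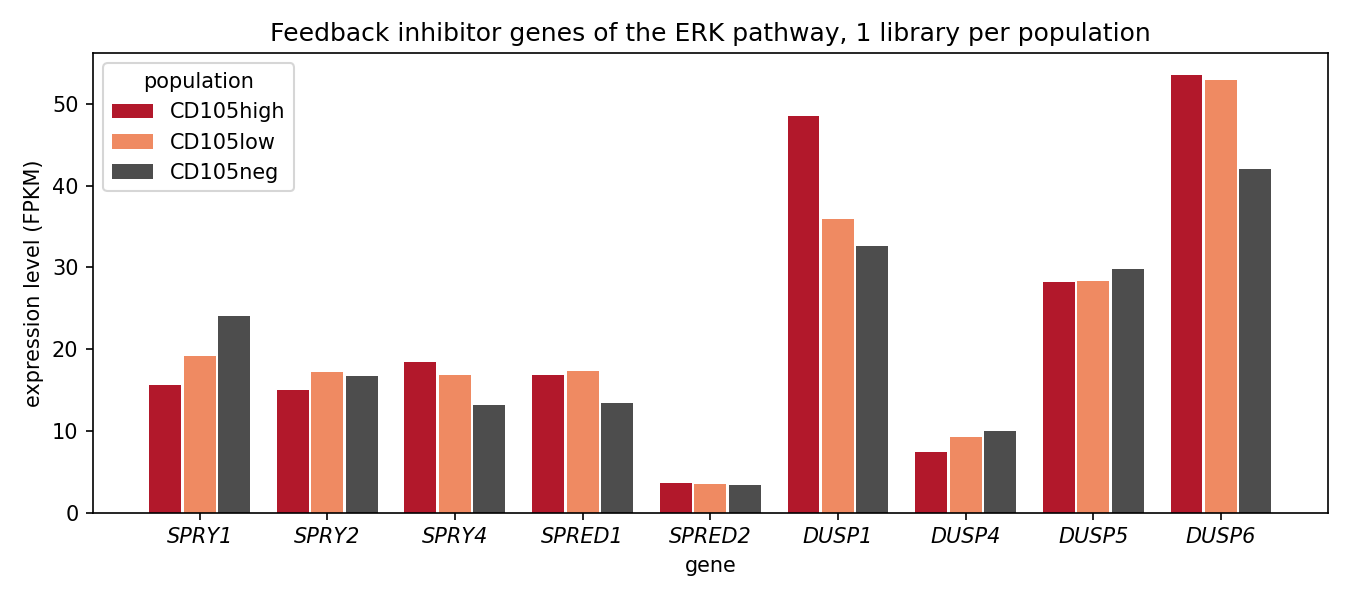
Expression level in FPKM (vertical axis) of each feedback inhibitor gene (horizontal axis), with 1 bar for the single library of CD105high, CD105low and CD105neg. SPRY1 is lowest in CD105high, at 15.6 FPKM against 24.0 FPKM in CD105neg, DUSP1 is highest there, at 48.5 FPKM against 32.6 FPKM, and DUSP5 stays between 28.2 and 29.8 FPKM.

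Among the Sprouty genes, SPRY1 and SPRY4 had opposite orders. Sprouty proteins are membrane-associated inhibitors that are themselves phosphorylated when growth factor receptors fire. SPRY1 (ENSG00000164056.10) stood at 15.6 FPKM in CD105high, 19.1 FPKM in CD105low and 24.0 FPKM in CD105neg. CD105high was thus the lowest library, with CD105low in between. On the scale of FPKM + 1, which is used for every fold below and shrinks the fold of low genes, SPRY1 was 1.51-fold lower in CD105high than in CD105neg (log2 fold change -0.60). Of the measured genes, 12.1% lay at least as far from 0 in that comparison. SPRY4 (ENSG00000187678.8), an inhibitor known to act on VEGF signalling to RAF, stood at 18.4 FPKM in CD105high, 16.8 FPKM in CD105low and 13.2 FPKM in CD105neg. It had the reverse order, with CD105high the highest library and a log2 fold change of 0.45 against CD105neg (1.37-fold). SPRY2 (ENSG00000136158.11) stood at 15.0 FPKM in CD105high, 17.2 FPKM in CD105low and 16.7 FPKM in CD105neg, with the log2 fold change of CD105high against CD105neg at -0.15. The summed level of the 3 genes was 49.0 FPKM in CD105high, 53.1 FPKM in CD105low and 54.0 FPKM in CD105neg, so that their mix differed more than their sum. SPRY1 made up 31.8% of it in CD105high, 36.0% in CD105low and 44.5% in CD105neg, and SPRY4 37.6%, 31.7% and 24.5%. The ratio of SPRY4 to SPRY1 FPKM, which no scaling of the libraries can alter, was 1.18 in CD105high, 0.879 in CD105low and 0.550 in CD105neg, 2.15-fold higher in CD105high than in CD105neg. This pair was chosen after its values were seen.

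The promoters of SPRY1 and SPRY4 are shown because these genes had opposite orders. The windows, from RefSeq on GRCh38.p14, are the 250 bases before an annotated transcription start, and capitals mark every match to the motifs searched. SPRY1 has 2 starts in the table, both on the plus strand, with windows at chr4:123396545-123396794 and chr4:123398136-123398385, and the window of SPRY4 is at chr5:142324248-142324497 on the minus strand.
SPRY1, start 1: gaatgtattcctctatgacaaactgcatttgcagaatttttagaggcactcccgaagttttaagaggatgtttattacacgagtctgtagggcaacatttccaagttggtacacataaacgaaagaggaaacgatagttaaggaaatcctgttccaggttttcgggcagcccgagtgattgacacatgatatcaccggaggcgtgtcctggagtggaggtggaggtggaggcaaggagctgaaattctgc
SPRY1, start 2: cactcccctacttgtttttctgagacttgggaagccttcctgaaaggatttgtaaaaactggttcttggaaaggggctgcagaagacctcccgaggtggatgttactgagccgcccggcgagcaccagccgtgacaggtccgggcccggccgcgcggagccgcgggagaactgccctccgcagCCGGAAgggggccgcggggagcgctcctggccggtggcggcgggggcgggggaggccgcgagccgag
SPRY4: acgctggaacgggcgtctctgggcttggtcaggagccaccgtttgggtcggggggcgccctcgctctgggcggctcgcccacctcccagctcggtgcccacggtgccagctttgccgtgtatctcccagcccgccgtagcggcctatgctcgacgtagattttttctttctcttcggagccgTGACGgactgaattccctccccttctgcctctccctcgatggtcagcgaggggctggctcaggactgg
The motifs were the cAMP response element TGACGTCA and its core TGACG, the AP-1 site TGANTCA, the ETS site CCGGAA, the E-box CACGTG, the TATA box TATAAA and the CArG box of serum response factor, on both strands. The window of the second SPRY1 start holds 1 ETS match, from base -67 to base -62 counted back from the start, and that of SPRY4 1 cAMP response element core, from base -68 to base -64. Of the 35116 promoter windows of the same length in the table, 14.5% hold the ETS match and 21.2% the core, so both are common.

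SPRED1 stood well above SPRED2 in every library. SPRED1, which brings the RAS inactivator neurofibromin to the membrane, and SPRED2 carry a Sprouty-like domain. SPRED1 (ENSG00000166068.12) stood at 16.9 FPKM in CD105high, 17.3 FPKM in CD105low and 13.4 FPKM in CD105neg. It was higher in CD105high and CD105low than in CD105neg, with log2 fold changes against CD105neg of 0.31 for CD105high and 0.35 for CD105low. SPRED2 (ENSG00000198369.9) stood at 3.62 FPKM in CD105high, 3.50 FPKM in CD105low and 3.36 FPKM in CD105neg. That is a ratio of 1.08 between its highest and lowest library. SPRED1 made up 82.3% of the summed SPRED level in CD105high, 83.2% in CD105low and 79.9% in CD105neg.

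Among the nuclear phosphatases, DUSP1 was highest in CD105high, DUSP4 lowest there, and DUSP5 nearly level. DUSP1, an early response gene, acts on ERK and on the stress kinases p38 and JNK. DUSP1 (ENSG00000120129.5) stood at 48.5 FPKM in CD105high, 36.0 FPKM in CD105low and 32.6 FPKM in CD105neg. CD105low lay close to CD105neg and CD105high apart from both. CD105high had a log2 fold change of 0.56 against CD105neg (1.47-fold) and 0.42 against CD105low, while CD105low had one of 0.14 against CD105neg. For CD105high against CD105low, 2.49% of measured genes had a higher log2 fold change. DUSP4 (ENSG00000120875.8), a close relative induced by ERK, stood at 7.38 FPKM in CD105high, 9.26 FPKM in CD105low and 9.93 FPKM in CD105neg. It also had its wider step between CD105high and CD105low, with a log2 fold change of -0.29, against -0.09 for CD105low against CD105neg. DUSP5 (ENSG00000138166.5), which is specific for ERK, stood at 28.2 FPKM in CD105high, 28.3 FPKM in CD105low and 29.8 FPKM in CD105neg, a ratio of 1.06 between its highest and lowest library. The ratio of DUSP1 to DUSP4 FPKM was 6.57 in CD105high, 3.88 in CD105low and 3.28 in CD105neg; this pair too was chosen after its values were seen.

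The DUSP1 promoter is shown because this gene had the highest log2 fold change of the 9 in CD105high against CD105neg and against CD105low. Its window lies at chr5:172771196-172771445 on the minus strand of GRCh38.p14, from RefSeq.
DUSP1: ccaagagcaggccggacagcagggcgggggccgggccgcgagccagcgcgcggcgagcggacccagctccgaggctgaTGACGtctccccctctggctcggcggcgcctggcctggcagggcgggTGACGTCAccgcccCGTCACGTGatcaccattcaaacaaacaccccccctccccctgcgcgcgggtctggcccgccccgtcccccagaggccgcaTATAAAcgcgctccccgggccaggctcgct
It holds a full cAMP response element from base -125 to base -118, which 1.65% of all windows hold, and 4 matches of the core, of which 2 lie inside the full element and 1 overlaps the E-box. The E-box lies from base -108 to base -103 and the TATA box from base -30 to base -25, matches that 6.34% and 10.7% of all windows hold. No match of the AP-1 site or the CArG box was found in any of the 11 windows included, which cover 7 of the 9 genes. No window of DUSP4 or DUSP5 was included. The DUSP6 and SPRED1 windows held no match at all, nor did some windows of SPRY1, SPRY2 and SPRED2. A match describes the letters of the window and not a bound factor, and binding was not measured.

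**Figure D2:**
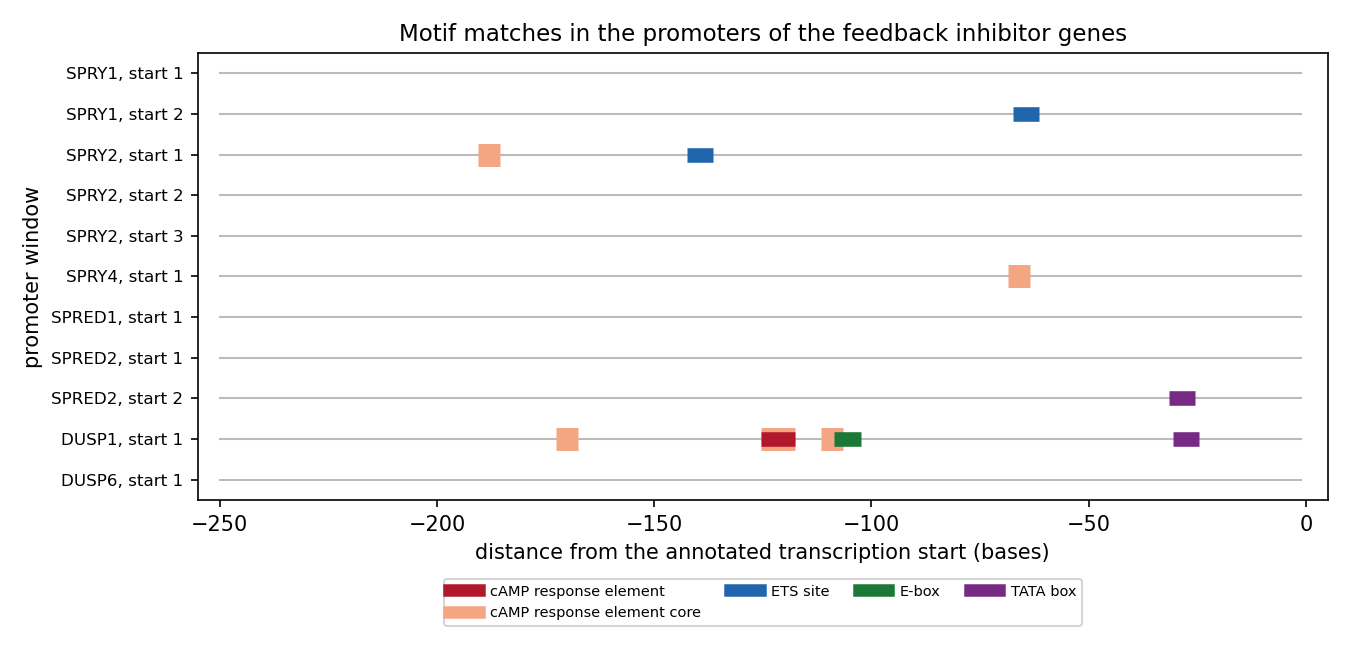
Motif matches in the 250 bases before each annotated start, by distance from that start in bases (horizontal axis), for the 11 windows of 7 feedback inhibitor genes. Coloured bars are matches, and DUSP1 alone among these windows holds a full cAMP response element, from base -125 to base -118.

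DUSP6, the cytoplasmic phosphatase specific for ERK and the highest of the 9 genes, was higher in CD105high and CD105low than in CD105neg. DUSP6 (ENSG00000139318.7) stood at 53.5 FPKM in CD105high, 52.9 FPKM in CD105low and 42.1 FPKM in CD105neg. CD105high and CD105low were nearly level, with log2 fold changes against CD105neg of 0.34 and 0.32. Both use the same CD105neg library, as do those of SPRY4 and SPRED1, which also reached at least 0.3 in each. SPRY1 reached that size in the other direction, at -0.60 and -0.32. Of measured genes 38.6% and 24.7% lay at least 0.3 from 0 in these comparisons. The DUSP6 value is uncertain: 35.2% of its sampled 50-base pieces also occur in AC024909.2, a gene on the other strand that overlaps 40.5% of its exonic bases, and counting by strand is not stated in the labels, so that reads of the pair cannot be told apart. Of the other 8 genes only SPRED1 shared any pieces with another gene, 1.70%, and none had an exonic overlap. The ratio of DUSP6 to DUSP5 was 1.90 in CD105high, 1.87 in CD105low and 1.41 in CD105neg. The 4 phosphatase genes together took 66.4% of the summed level of the 9 genes in CD105high, 63.1% in CD105low and 61.8% in CD105neg.

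Counted by a 1.5-fold rule, the 9 genes gave 1 call in the 3 comparisons. In CD105high against CD105neg none was at least 1.5-fold higher, where 5.65% of the 11343 measured genes were, and 1 was at least 1.5-fold lower, SPRY1, where 6.88% of measured genes were. SPRY1 at 1.51-fold and DUSP1 at 1.47-fold lie on either side of that rule. The median over all measured genes in this comparison was -0.09 (log2). With that median set to 0, DUSP1 was the 1 gene at least 1.5-fold higher (1.57-fold, where 7.38% of measured genes were) and none was at least 1.5-fold lower (SPRY1 1.42-fold, where 4.5% of measured genes were). In CD105low against CD105neg no member was 1.5-fold higher or lower, against 4.13% and 2.18% of measured genes. In CD105high against CD105low none was either, against 1.18% and 2.19% of measured genes. For CD105high against CD105neg the median log2 fold change was 0.09 over the 9 genes and -0.09 over all measured genes. It was 0.05 and 0.02 when CD105low was set against CD105neg, and -0.01 and -0.10 when CD105high was set against CD105low.

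By direction alone, 4 of the 9 genes were in the order CD105high over CD105low over CD105neg, namely SPRY4, SPRED2, DUSP1 and DUSP6, an order that 17.6% of measured genes showed. The reverse order held for SPRY1, DUSP4 and DUSP5, and for 36.4% of measured genes. For SPRED2, DUSP5 and the CD105high and CD105low values of DUSP6 the steps are small. With the median of each comparison set to 0, 5 genes were in the first order, the same 4 and SPRED1, where 28.6% of measured genes were. The reverse order then held for SPRY1 and DUSP4, and for 28.6% of measured genes. On that scale the sign turned for DUSP5 in CD105high against CD105neg and for DUSP5 and SPRED1 in CD105high against CD105low. All 9 genes lay between the 5th and 95th percentile of measured genes in CD105high against CD105neg, from -0.65 to 0.63, and in CD105low against CD105neg. In CD105high against CD105low 8 did, and DUSP1 at 0.42 lay above the 95th percentile of 0.29.

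**Figure D3:**
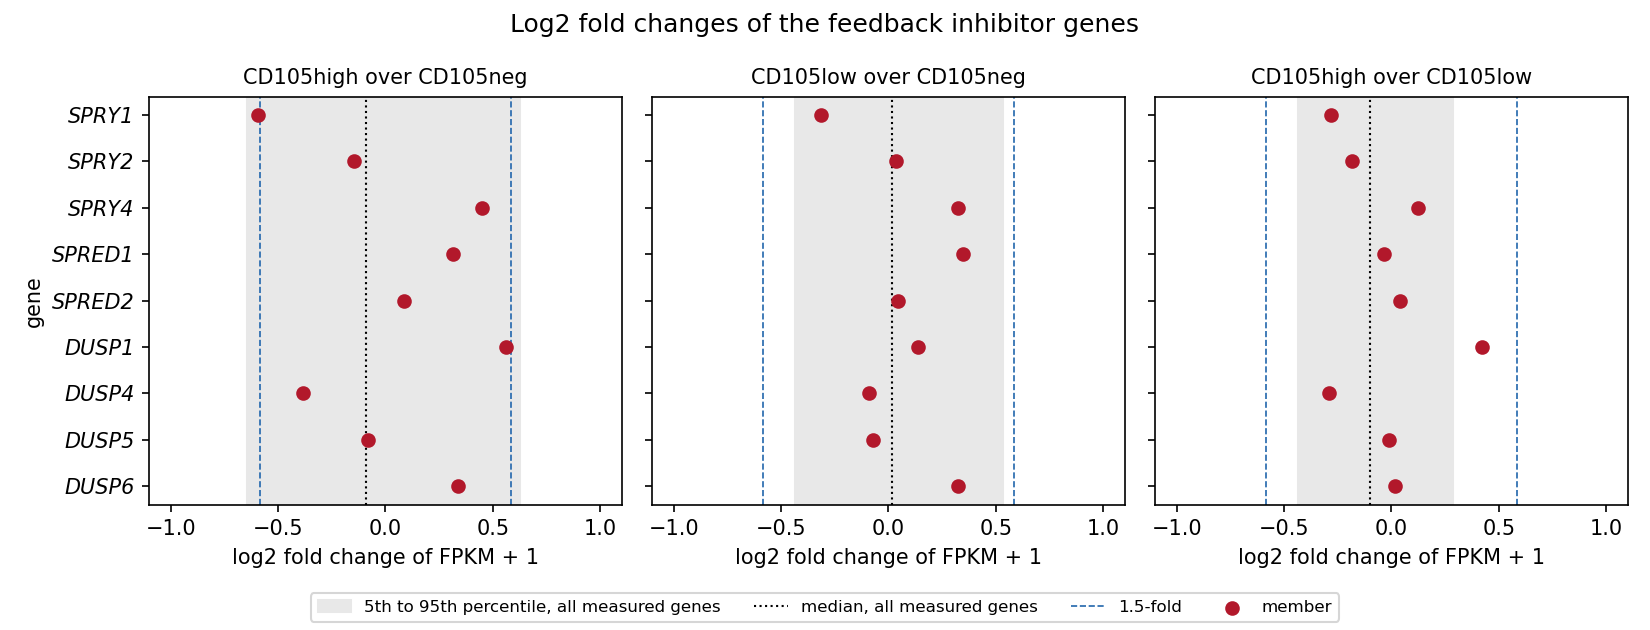
Log2 fold change of FPKM + 1 (horizontal axis) of each feedback inhibitor gene (vertical axis) in the 3 comparisons of single libraries. Grey bands span the 5th to the 95th percentile of the 11343 measured genes, dotted lines mark their median and dashed lines 1.5-fold; all points lie inside the band except DUSP1 in CD105high over CD105low, at 0.42.

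The other genes of the pathway were counted from lists chosen with earlier results of these data known. The counts are for CD105high against CD105neg, to be read beside the 5.65% of measured genes that were higher and the 6.88% that were lower. With the median gene set to 0 those shares were 7.38% and 4.5%. Of 8 measured relatives, the further Sprouty, SPRED and DUSP genes, 1 was lower by 1.5-fold or more in CD105high and none higher (median log2 fold change -0.15). It was DUSP3, a small phosphatase of ERK and JNK, with 7.31 FPKM in CD105high, 7.73 FPKM in CD105low and 16.4 FPKM in CD105neg. The other 7 were DUSP7, DUSP14, DUSP16, DUSP10, DUSP2, SPRED3 and SPRY3, all below 8 FPKM, and SPRY3 has copies on both sex chromosomes that reads cannot tell apart. Of 23 other RAS-ERK inhibitors 3 were higher and 1 lower (median 0.13), or 4 and 1 on centring. Those higher were CAV1, the caveolin that coats caveolae (4.24 FPKM in CD105high, 2.07 FPKM in CD105neg), the endothelial phosphatase gene PTPRB (17.8 and 10.8 FPKM) and the RAS inactivator gene DAB2IP (15.3 and 9.51 FPKM). The 1 lower was the phosphatase gene PTPRJ (1.05 and 2.83 FPKM).

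VEGF and FGF receptors signal through the RAS-ERK kinases. Of 12 measured VEGF and FGF receptors and co-receptors, 3 were higher in CD105high by 1.5-fold or more and 1 lower (median 0.10), or 4 and 1 on centring. NRP1, a VEGF co-receptor, had 95.4 FPKM in CD105high and 38.4 FPKM in CD105neg, and FLT4 at 41.3 and 18.9 FPKM. FLT1, with a log2 fold change of 0.57, stood just under the rule. FGFR1, the most abundant FGF receptor gene, was level at 70.7 FPKM in CD105high, 71.0 FPKM in CD105low and 69.7 FPKM in CD105neg, and FGFR3 was lower, with 5.33 FPKM in CD105high and 13.3 FPKM in CD105neg. The summed level of the 9 feedback genes per unit of KDR was 0.29 in CD105high, 0.311 in CD105low and 0.430 in CD105neg. The sum itself was 1.12 times as high in CD105high as in CD105neg, and KDR 1.66 times. The ratio to KDR thus depends on the receptor gene chosen, and none to the level FGFR1 was taken. Of 30 RAS-ERK core genes 3 were higher and none lower on either scale (median 0.13), among them MAP2K1, which encodes MEK1, with 27.3 FPKM in CD105high and 17.4 FPKM in CD105neg, and the adaptor gene GAB1, at 14.5 and 7.24 FPKM. The third was RPS6KA2, a kinase gene downstream of ERK, at 10.5 and 4.17 FPKM. Of 6 measured genes of the VEGF and FGF families 1 was higher, FGF12, and 3 lower, FGF13, PGF and VEGFB (median -0.44). VEGFB, a ligand of FLT1, had 4.61 FPKM in CD105high and 9.53 FPKM in CD105neg for these single libraries. On centring 1 of these 6 genes was higher and 1 lower.

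**Figure D4:**
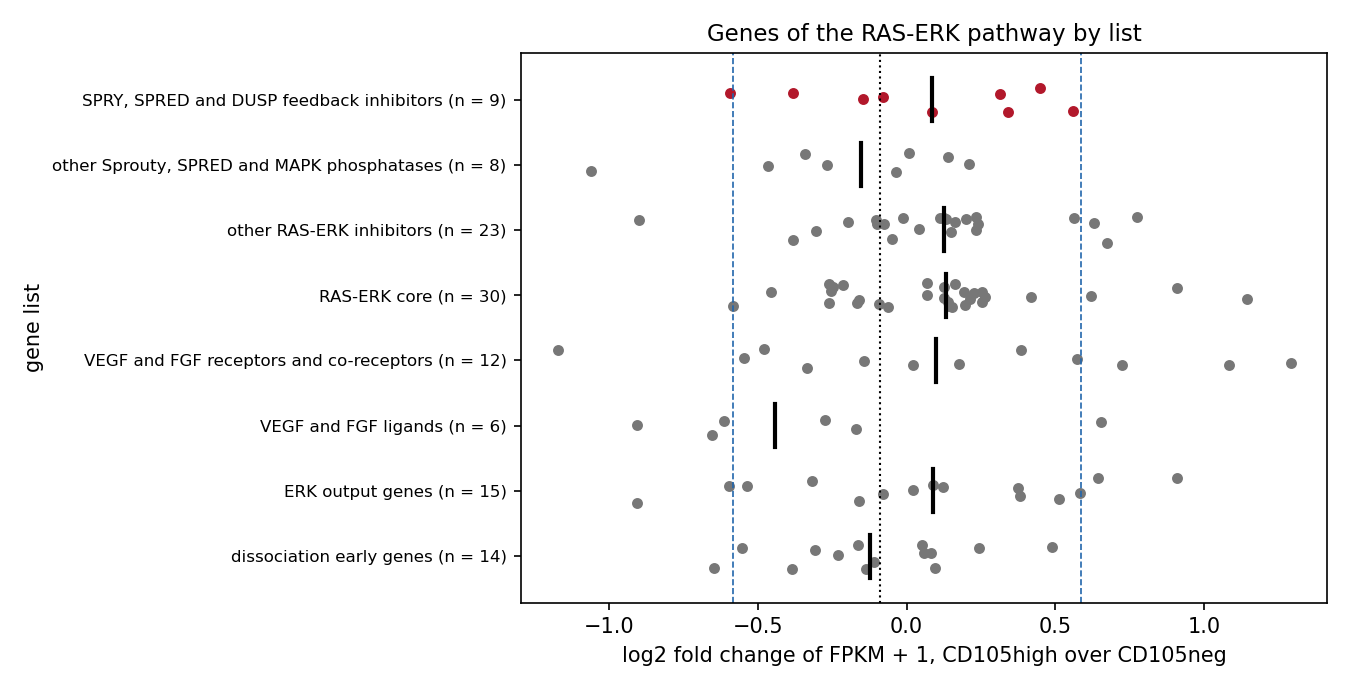
Log2 fold change of FPKM + 1 in CD105high over CD105neg (horizontal axis) for the measured genes of 8 lists (vertical axis), 1 point per gene with random vertical spread. Black bars are list medians, the dotted line the median of all measured genes and the dashed lines 1.5-fold; the feedback inhibitors, in red, span -0.60 to 0.56, and the receptors reach 1.29 with NRP1.

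Of the list of genes known to be induced by ERK, other than the 9, 18 of 26 had a value and 15 were measured. By that rule 2 were higher in CD105high, UPP1 and TRIB1, and 2 lower, IL11 and PHLDA2 (median 0.09), and on centring 4 were higher and 1 lower. DUSP1 is also a gene that responds to the dissociation of cells. Of a dissociation list of 25 genes, 14 had a value, and by the same rule none was higher in CD105high and 1 was lower, ZFP36, with none either way on centring. These 14 summed to 997 FPKM in CD105high, 1083 FPKM in CD105low and 1176 FPKM in CD105neg, of which HSPA8, named after its values were seen, made up 537, 607 and 665 FPKM. SOCS3, a cytokine signalling inhibitor, had 79.6 FPKM in CD105high, 72.5 FPKM in CD105low and 56.5 FPKM in CD105neg, a log2 fold change of 0.49 between CD105high and CD105neg. The part of dissociation in the DUSP1 value was not tested.

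Marker lists of endothelial and other cells also differed between the populations. The counts below are for CD105high against CD105neg, where 5.65% of measured genes were 1.5-fold or more higher and 6.88% lower. Of 18 endothelial markers 15 had a value. Of those, 13 were 1.5-fold or more higher in CD105high and none lower. The 15 markers summed to 2381 FPKM in CD105high, 2218 FPKM in CD105low and 1519 FPKM in CD105neg. All 10 measured erythroid and megakaryocyte markers were at least 1.5-fold lower, with sums of 16.1, 31.5 and 82.6 FPKM in CD105high, CD105low and CD105neg, and HBZ, HBA1, HBA2, AHSP, SLC4A1, GP1BB and PPBP were listed at 0 in at least 1 library. Of 10 measured mesenchymal and mural markers 5 were lower and none higher, with sums of 452, 529 and 561 FPKM, and DCN was listed at 0 in at least 1 library. Of 12 pluripotency and epithelial markers only 8 had a value, and POU5F1, NANOG, SOX2 and LIN28A had none, so the count does not cover them. Among the 8 with a value 1 was lower, and none on centring, with sums of 125, 131 and 137 FPKM. Of 14 leukocyte markers 4 were measured and 2 were lower, with sums of 8.79, 12.2 and 13.4 FPKM, and PTPRC, MPO and CD3E were listed at 0 in at least 1 library. The part of these cell types in the values of SPRY1, SPRY4, DUSP1 and the other members was not tested.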

How the data were processed

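RNA-seq of 3 samples was used, 1 library each. The TruSeq kit took 2 ug of total RNA, per the labels' protocols. BWA, Bowtie, RSEM and hg19 stand in the submitters' processing notes, with no role or version; annotation and filters: not given in the sources used here. The authors' deposited values, 1 per gene, were treated as FPKM, since no header or label names their unit; TPM would differ by 1 factor per library. The value column of the CD105neg library is headed as CD105 positive, and its group was taken from the sample's labels.

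Members and lists were chosen with earlier results of these data known. Fold changes are log2 of the value plus a pseudocount of 1, with no test, over genes reaching 1 FPKM in any library. All members were named, as were all measured relatives, and of each other list up to 4 genes with the largest CD105high against CD105neg change were open to naming. KDR, FLT1, FGFR1, ENG, PECAM1 and CD34 were named whatever their values, as were markers listed at 0. Shared sequence was read from GENCODE release 29 transcripts in 50-base pieces (18317 genes matched). Promoter windows were matched by symbol to RefSeq tables. Python 3.11.15, pandas 2.3.3 and matplotlib 3.10.9 were used. Alternatives were other pseudocounts, scalings, filters and a 2-fold rule; centred orders of the levels were added after seeing the data. Not every gene the naming rule picked is reported here.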

Additional observations from a re-analysis of the deposited data

How the results depend on the processing

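The 1 call, SPRY1 lower in CD105high than in CD105neg, was lost (0 members lower) with a pseudocount of 5, on centring on the median gene, on scaling to one sum or to the upper quartile, and with a 2-fold rule. Of measured genes 2.42%, 4.5%, 6.44%, 5.45% and 1.31% were called lower in these settings, in that order, in place of 6.88%. Members at least 1.5-fold higher in that comparison numbered 1 on centring and on upper quartile scaling, DUSP1, and 2 on scaling to one sum, SPRY4 and DUSP1. The share of measured genes higher was 7.38% on centring, 6.43% on upper quartile scaling and 9.62% on scaling to one sum, in place of 5.65%. Apart from the 2-fold rule, which only raises the threshold, these settings change the scale or the fold of every gene by construction. The median log2 fold change of the members was 0.22 for CD105high against CD105neg on scaling to one sum and 0.31 with a filter of 10 FPKM, which leaves 7 members. For CD105high against CD105low it was 0.089 on centring, 0.091 on scaling to one sum and 0.080 on upper quartile scaling, in place of -0.01. The order CD105high over CD105low over CD105neg held for 5 members on centring, in place of 4, and the reverse order for 2, in place of 3, an alternative chosen after seeing the data. With a pseudocount of 0.1 and with no filter, the counts were the same and no median moved by more than 0.1.

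No paired analysis was possible because each population has 1 library, and for the same reason no library was left out. The absolute depth is unknown, so no counting interval is given.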

Other observations

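PHLDA1 and SPHK1, genes induced by ERK, stood apart in CD105low and were chosen after their values were seen. PHLDA1, a pleckstrin-like protein gene, stood at 38.2 FPKM in CD105high, 13.6 FPKM in CD105low and 42.8 FPKM in CD105neg. SPHK1, a sphingosine kinase gene, stood at 2.68, 5.91 and 2.89 FPKM in CD105high, CD105low and CD105neg. In CD105low against CD105neg their log2 fold changes were -1.58 and 0.83, and in CD105high against CD105low 1.42 and -0.91. Of the 9 feedback inhibitors only SPRY2 and SPRED1 were highest in CD105low, and their log2 fold changes in CD105high against CD105low were -0.18 and -0.03.

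The genes most like SPRY1 and DUSP1, the members farthest from 0 in CD105high against CD105neg, were sought among 5902 genes that reached 10 FPKM in any library, by the larger of the differences between their 2 log2 fold changes against CD105neg. For SPRY1 the nearest included the ribosomal protein gene RPS18 (distance 0.007), whose family has many near-identical copies, and COA4 (0.012), and 202 genes lay within 0.1. For DUSP1 the 3 nearest were KIF3C (0.050), FNBP1L (0.065) and KIFAP3 (0.067), and 17 genes lay within 0.1. These distances describe 3 libraries.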
